A study of Mus musculus with 86 samples.

Results

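The RNA-binding protein TDP-43 was removed from cells carrying a pool of reporters, and the abundance of every reporter was then measured in neurites, the thin projections of the cell. These measurements make up 8 of the 86 samples of the series. They are the neurite libraries of a massively parallel reporter assay (MPRA), chosen by their labels alone, with 4 knockout libraries (labelled +dox) against 4 wild-type libraries (labelled -dox). Each reporter was a GFP transcript whose 3′ UTR held a different 260 nt oligo, and its abundance was counted as unique molecular identifiers (UMIs), the short random tags that mark single copies of cDNA.

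All 8 libraries came from CAD cells, a mouse neuronal line that grows neurites when serum is withdrawn. In wild-type and knockout cultures alike, the endogenous Tardbp alleles, which encode TDP-43, had been disrupted with CRISPR in a line grown from single cells, and a single-copy HA-tagged TDP-43 transgene under a doxycycline-off promoter was the remaining source of the protein. The labels give the genotype of both groups as TetOff TDP-43, so that wild type here means this line without doxycycline and knockout means the same line with it. Doxycycline went with knockout in every library, so loss of TDP-43 and the drug itself cannot be told apart. Doxycycline was given at 2 µg/mL for 48 h according to the labels, while the methods give a lower dose for these transfections. The reporter plasmids were transfected into the cells, and neurites were separated from cell bodies on porous membranes.

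TDP-43 binds single-stranded RNA rich in alternating U and G, and the loss of its nuclear function is a hallmark of amyotrophic lateral sclerosis. It acts in splicing, in RNA stability and in the movement of RNA along axons. Many of its sites lie in introns and in 3′ UTRs, the part of a transcript that most often carries the signals for localization.

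The oligos tiled the 3′ UTRs of 16 genes in steps of 6 nt, so that neighbouring oligos shared 254 of their 260 nt and were not independent measurements. Per the methods, tiles also covered flanking sequence at both ends, so the first oligos of a UTR can hold coding sequence. The methods name a different number of UTRs, and the 16 here are those found in the files. Among 11955 oligos with a UMI in the neurite libraries were 7389 native sequences. A native oligo that held GTGTG or TGTGT or GTATG in DNA letters (4566 oligos, 61.8% of native oligos) is called a motif oligo and had a mutated companion in which these letters were replaced, giving 4566 mutated oligos. The other 2823 native oligos had no motif. Between 7923270 and 9893516 UMIs were counted in the knockout libraries, with a median of 355 to 428 per oligo, and between 8117679 and 11174200 in the wild-type libraries, with a median of 522 to 713. The 55 oligos with the fewest UMIs were not tested, which left 11900. Nothing in the labels says more of how the 4 libraries of a group differ than a replicate number, so that the p-values measure the spread between these libraries, which may be technical. By chi-square of counts per degree of freedom, knockout replicates 1 and 2 (2.11) and 3 and 4 (2.09) were closer than other knockout pairs (3.79 to 7.74). Wild-type pairs lay between 2.28 and 4.40. The tests treat the 4 knockout libraries as independent, and the labels do not explain these pairs. In bulk neurite RNA, fewer cells holding a reporter and less reporter RNA per cell cannot be told apart.

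The densest 30 nt of 9 peak oligos with repeats or closely spaced motifs, from small to large rises, are shown 5′ to 3′. They are printed because the results below turn on these letters. Not every peak held such letters, since Cacna1b oligo 453 had 0 copies of those marked in either set below. In the first set, capitals mark GTGTG or TGTGT or GTATG, the letters that the mutated companions lacked, and peak oligos of 6 UTRs are given.
Fam160b2 oligo 246: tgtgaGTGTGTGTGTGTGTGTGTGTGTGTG
Diras1 oligo 272: GTGTGTGTGTGTGaagggggagaGTGTGTG
Lrrc47 oligo 59: agGTGTGgGTATGctgcagGTGTGgGTGTG
Spock2 oligo 24: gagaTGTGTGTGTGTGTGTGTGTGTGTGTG
Cacna1b oligo 315: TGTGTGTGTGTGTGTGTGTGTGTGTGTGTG
Tub oligo 433: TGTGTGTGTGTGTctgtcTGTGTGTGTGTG

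In the second set, capitals mark GGATG and GAATG, letters that the mutation scheme of the study did not target and that were chosen for display after the values were seen.
Ksr2 oligo 1447: gtGAATGAATGGATGatGGATGAATGGATG
Kank2 oligo 264: tggacagatGGATGggtGGATGGATGGATG
Wasf3 oligo 431: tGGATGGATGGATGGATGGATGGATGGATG

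These windows lie in annotated 3′ UTRs at chr14:70583544-70583573 (minus strand) for Fam160b2, chr10:81020258-81020287 (minus) for Diras1, chr4:154020277-154020306 (plus) for Lrrc47, chr10:60131707-60131736 (plus) for Spock2, chr2:24605009-24605038 (minus) for Cacna1b and chr7:109032835-109032864 (plus) for Tub. Those of the second set lie at chr5:117774297-117774326 (plus) for Ksr2, chr9:21767394-21767423 (minus) for Kank2 and chr5:146472946-146472975 (plus) for Wasf3, all in GRCm38. The whole 260 nt of Wasf3 oligo 431 held 20 copies of GGATG or GAATG and 0 copies of the 3 TDP-43 motifs, those of Ksr2 oligo 1447 held 27 copies and 2 motifs, and those of Kank2 oligo 264 held 17 copies and 2 motifs.

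In knockout neurites 951 of the 11900 reporters tested were higher than in wild type (7.99%) and 57 were lower (0.479%), by edgeR's quasi-likelihood test at an adjusted p of 0.01. The rises were also the larger changes, with 375 reporters more than 8-fold higher and the largest fall at -1.20 on the log2 scale. Without any test, the 4 knockout libraries lay above the 4 wild-type libraries for 1165 reporters (9.79%) and below them for 502 (4.22%). Changes here are log2 differences between knockout and wild-type neurites on a scale that holds the typical reporter near no change (the median over all reporters was -0.01). When each library was instead divided by its total UMIs, the median reporter was at -0.64 and the calls were 695 higher and 10823 lower, and with upper-quartile scaling the median was -0.16 and the calls were 879 higher and 3290 lower.

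A small number of reporters took up a large part of the knockout libraries. The 951 called-higher reporters held 7.12% to 7.42% of UMIs in wild-type neurites and 38.3% to 42.9% in knockout neurites, while the reporters without a call went from between 91.8% and 92.1% to between 56.7% and 61.3%. In knockout neurites the 100 most abundant reporters alone took 15.8% to 18.1% of UMIs, against 4.56% to 4.63% for the 100 most abundant in wild-type neurites. Every one of those 100 in knockout neurites was called higher, and they came from Ksr2 (36), Fam160b2 (27), Lrrc47 (27), Diras1 (7), Wasf3 (2) and Kank2 (1). Among the 100 most abundant in wild-type neurites, only 6 were called higher and Wasf3 (23), Ksr2 (15) and Tub (15) gave the most. The most abundant reporter of any library reached 32009 UMIs, which is 48.8% of the 65536 tags that an 8 nt identifier allows. A correction for tags shared by chance gave 951 higher calls, 950 of them shared with the uncorrected counts. That comparison is of calls and not of the size of changes. The CPM values, changes and shares printed here use uncorrected counts, which shared tags lower most in the most abundant reporters.

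The motif class carried most of the rise. Of 4552 motif oligos tested, 702 rose (15.4%) and 10 fell (6 without knockout replicate 3 and 5 without knockout replicate 4), compared with 155 of 4545 mutated oligos (3.41%, 29 fell) and 94 of 2803 oligos without a motif (3.35%, 18 fell), against 7.99% of all oligos. More than 8-fold rises numbered 257, 61 and 57 in the same order. The median log2 change of each class stood near 0, at 0.00 for motif, -0.03 for mutated and -0.02 for no-motif oligos. In shares of UMIs, motif oligos went from 40.4% ± 0.435 (SD, n = 4) of wild-type neurite UMIs to 54.0% ± 0.352 of knockout UMIs, mutated oligos from 36.6% ± 0.308 to 27.1% ± 0.392 and no-motif oligos from 23.0% ± 0.144 to 18.9% ± 0.0579. The libraries of the groups did not overlap for any class (exact permutation test, two-sided, p = 0.0286 for each, the smallest that 4 against 4 allows). Shares add to 100%, so a rise of some oligos lowers the share of all others.

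Rises were gathered in few places. Native oligos rose in 11 of 16 UTRs, and 769 of the 796 native oligos that rose (96.6%) stood in 15 runs of at least 5 called neighbours. The runs lay in Ksr2, Lrrc47, Fam160b2, Spock2, Diras1, Wasf3, Kank2, Kcnj12, Fam219a, Cacna1b and Tub. No native oligo was called higher in Lars2 (155 tested), Soga3 (86), Sos2 (250), Ssc5d (61) or Synj2bp (775), where the highest native log2 changes were 0.24, 0.36, 0.43, 0.19 and 0.38. Because neighbours share most of their sequence, the 15 runs, more than the 796 oligos, count the places that responded.

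The largest rises of all lay in the 3′ UTR of Ksr2, which encodes a scaffold of the Ras and MAP kinase pathway. A run of 90 oligos (numbers 1411 to 1500, chr5:117774017-117774810, plus strand) rose by a median log2 of 4.90, and 71 of them rose more than 8-fold. Ksr2 oligo 1447 had 3.10, 3.38, 3.35 and 3.75 CPM (UMI counts scaled to library size and composition) in the wild-type libraries and 350.4, 336, 447 and 472 in the knockout libraries. The groups were far apart, with a log2 change of 6.89 ± 0.131 (SE) and an edgeR adjusted p of 2.67e-20. It rested on only 34 to 43 UMIs per wild-type library. The oligos ranked behind it, numbers 1445, 1440, 1452 and 1443, changed by between 6.81 and 6.86.

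Of the 90 oligos in the Ksr2 run, 28 held no TDP-43 motif. Ksr2 oligo 1478, one of these, was among the 5 reporters with the most UMIs of all, at 226, 239.6, 249 and 239 CPM in wild-type and 3633, 3312, 3895 and 4171 CPM in knockout neurites. It rose by 3.98 ± 0.108 on the log2 scale (edgeR adjusted p = 6.25e-18), so a reporter that was already well above the typical level in wild-type neurites became 15.7-fold higher. Mutating the motifs of the other 62 oligos left the rise in place, since all 62 mutated companions were called higher with a median of 5.63. The companion of oligo 1447 went from 3.39, 2.68, 3.82 and 2.44 CPM to 197, 189, 248 and 244 CPM, a change of 6.13 ± 0.121. The native oligo still changed more than its companion in 44 of 62 pairs, by a median log2 of 0.60.

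Mutated companions rose in Wasf3 and Kank2 too. In Wasf3, which encodes a regulator of actin assembly, 59 oligos rose by a median of 4.11 (numbers 391 to 449, chr5:146472618-146473225, plus strand), and 46 of them held no motif. Wasf3 oligo 431 had 12.2, 9.24, 12.003 and 9.41 CPM in wild-type and 481, 441, 525 and 548 CPM in knockout neurites. This oligo without a motif rose by 5.53 ± 0.0943 (edgeR adjusted p = 1.66e-20). All 13 mutated companions in the run were called higher, and only 1 of 13 pairs showed a larger change in the native oligo.

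In Kank2, which encodes an ankyrin repeat protein of cell adhesions, 49 oligos rose by a median of 2.82 (numbers 237 to 285, chr9:21767041-21767588, minus strand), 10 of them without a motif. Oligo 264 went from 26.1, 16.6, 17.9 and 22.1 CPM to 520.1, 483, 687.5 and 708 CPM, and its mutated companion from 83.5, 65.9, 68.1 and 65.6 to 699.8, 613, 857 and 854 CPM. The native change was 4.85 ± 0.138 and the mutated change 3.41 ± 0.107, a difference of 1.43 ± 0.0779 (edgeR adjusted p = 3.31e-10). Of 39 mutated companions in the run, 33 were called higher, with a median of 2.18, and the native oligo changed more in 39 of 39 pairs, by a median of 1.16. The Kank2 companions thus rose, but by less than the native oligos.

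These 3 runs held 84 of the 91 oligos without a motif that rose within runs. Counting GGATG and GAATG on the transcribed strand in the 13 UTRs that could be placed on the genome, 41.5% of 5772 native oligos held at least 1 copy and 3.07% held at least 10. Of the oligos without a motif, 82 of 84 with 10 copies or more rose, with a median of 3.67, against 4 of 38 with 6 to 9 copies, 0 of 14 with 3 to 5, 0 of 606 with 1 or 2 and 8 of 1379 with none. Among motif oligos, 93 of 93 with 10 copies or more rose (median 4.81), as did all 93 mutated companions (median 3.67). With 6 to 9 copies, 44 of 48 motif oligos and 21 of 48 mutated companions rose, some of them from Fam160b2. The oligos with 10 copies or more came from Kank2, Ksr2 and Wasf3 alone, so their counts describe 3 places. All these oligos overlapped others and were compared after the values were seen. The part of these letters in the rise was not tested. GGATG and GAATG share their last letters with GTATG, and a copy may overlap a TDP-43 motif.

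The remaining large runs held long UG repeats or dense single motifs, and there the mutated companions rose far less or were not called. Across all 4489 pairs that could be tested, the signed log2 change was higher in the native oligo than in its mutated companion in 627 (14.0%) and lower in 3 (0.0668%). The last were Ssc5d oligo 10 (-0.41), Tub oligo 254 (-0.36) and Tub oligo 82 (-0.26), and their number was 1 without knockout replicate 1 and 5 without wild-type replicate 1.

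Fam160b2 gave the 5 largest differences between a native oligo and its companion. All 92 oligos of its run (numbers 185 to 276) held a motif, rose by a median of 3.66 and, in the 91 pairs tested, all changed more than the mutated companion. Fam160b2 oligo 246 (chr14:70583414-70583673, minus strand) went from 30.006, 37.9, 30.1 and 31.5 CPM to 2517, 2319.6, 2666 and 2727 CPM, a 79.2-fold rise (log2 6.31 ± 0.116, edgeR adjusted p = 2.13e-20). Its mutated companion had 9.59, 11.0, 9.59 and 9.85 CPM in wild-type and 12.8, 17.0, 13.0 and 12.8 CPM in knockout neurites. The companion's libraries did not overlap either, and its change of 0.48 ± 0.124 stood close to the threshold. Its edgeR adjusted p was 0.0119, and it passed with DESeq2 (0.00520), with the replicate number as a block (0.00997), with scaling on no-motif oligos (0.00993) and without wild-type replicate 2 (0.00937). Oligo 236, among the 5 reporters with the most UMIs of all, was at 4056, 3781, 4075 and 4287 CPM in knockout neurites against 53.7, 57.8, 68.7 and 61.2 CPM in wild type. Of the 92 mutated companions 10 were called higher, none by more than 0.71.

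Lrrc47, which encodes a leucine-rich repeat protein, had its run at the start of its tiled sequence (numbers 1 to 93, chr4:154019777-154020588, plus strand). That start lies at -99 nt relative to the end of the stop codon, so the first oligos hold coding sequence. Here the motifs came singly and at short spacing, and the longest unbroken stretch of motif letters was 6 nt. All 93 oligos held a motif and rose by a median of 3.92. Oligo 59 went from 68.6, 69.4, 74.4 and 65.6 CPM to 2961, 2791, 3036 and 3349 CPM (log2 5.45 ± 0.108). Its mutated companion had 83.3, 85.3, 74.2 and 69.96 CPM in wild-type and 85.6, 84.9, 70.3 and 76.0 CPM in knockout neurites. The companion's groups overlapped, and its change was 0.02 ± 0.0701. In 93 of 93 pairs the native oligo changed more, by a median of 3.78.

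In the 3′ UTR of Diras1, which encodes a small GTPase of the Ras family, rises fell into a weak and a strong region. A strong run of 49 motif oligos (numbers 240 to 288, chr10:81019936-81020483, minus strand) rose by a median of 3.35, whereas a run of 36 upstream of it (179 to 214) rose by 0.71 and a run of 5 (173 to 177) by 0.35. Diras1 oligo 272, whose longest motif stretch was 13 nt, went from 19.8, 18.8, 23.1 and 20.6 CPM to 691, 644, 859 and 880.4 CPM (log2 5.22 ± 0.110, edgeR adjusted p = 8.37e-20). The peak of the weaker run, oligo 199, had a stretch of the same length and 62 nt in motifs against 45, and changed by 0.88 ± 0.0566, from 70.8, 77.2, 68.1 and 76.9 to 126, 148, 130.4 and 136 CPM. Oligo 175, the peak of the shortest run, changed by 0.44 ± 0.0524, which became -0.18 when libraries were divided by their total UMIs.

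The mutated companions in the strong Diras1 run went the other way. Of 49 tested, 16 fell, 0 rose and the median was -0.31, and with 2 more elsewhere in the UTR Diras1 gave 18 of the 29 mutated oligos that fell. The largest fall was that of mutated oligo 265, named after its values were seen, which had 76.4, 71.5, 66.7 and 71.7 CPM in wild-type and 30.5, 27.5, 31.8 and 34.9 CPM in knockout neurites. Its knockout libraries all lay below its wild-type libraries (log2 -1.20 ± 0.0702, edgeR adjusted p = 7.29e-12). The native oligo 265 went from 84.6, 77.8, 82.6 and 79.2 to 1659, 1542, 1908 and 1986 CPM in the same cells, so that the pair started at nearly the same level and ended 5.65 ± 0.0653 apart on the log2 scale relative to wild type. None of the 18 mutated oligos was called lower in the soma, where mutated oligo 265 changed by -0.09 (adjusted p = 0.736).

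The Spock2 3′ UTR rose in 2 separate runs. Spock2 encodes testican-2, a proteoglycan of the extracellular matrix. The run that spans the stop codon (numbers 4 to 53, 50 oligos, chr10:60131400-60131953, plus strand) rose by a median of 1.79, and the run farther downstream (239 to 289, 51 oligos, chr10:60132810-60133369) by 2.94. Spock2 oligo 277 went from 43.8, 43.5, 37.6 and 38.3 to 1109, 1042, 1149.6 and 1159 CPM (log2 4.77 ± 0.0839), and oligo 24 from 46.9, 49.3, 48.5 and 50.5 to 335, 306, 378 and 383 CPM (log2 2.85 ± 0.0689). Mutation of the motifs brought these changes to 0.42 ± 0.108 and -0.14 ± 0.0742. Of the 51 mutated companions in the downstream run 15 were called higher, with a median of 0.26, and 1 of 50 was in the other run.

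Kcnj12, which encodes an inward rectifier potassium channel, held the longest motif stretch of the pool, 53 nt, yet most of its run rose little. The 43 oligos (numbers 386 to 428) had a median of 0.94 and 10 of them rose more than 8-fold. Oligo 414 went from 28.4, 34.1, 39.1 and 32.8 to 682, 655, 703 and 722 CPM (log2 4.36 ± 0.0847), and its mutated companion from 47.8, 49.5, 41.2 and 50.6 to 48.1, 49.1, 46.9 and 47.7 CPM (0.02 ± 0.0684). Fam219a showed a run of 46 (numbers 141 to 186) with a median of 1.96 and a peak at oligo 158 of 2.95 ± 0.0891.

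Cacna1b and Tub, whose endogenous RNAs were lower in knockout neurites, both held runs that rose. Cacna1b encodes the pore of the N-type calcium channel. Its run of 60 oligos (numbers 277 to 336, chr2:24604659-24605272, minus strand) rose by a median of 1.66, and its peak, oligo 315, went from 27.5, 35.3, 38.5 and 32.8 to 253, 252, 246 and 230.2 CPM (log2 2.87 ± 0.0719). Every one of the 60 pairs changed more in the native oligo, and the companion of oligo 315 changed by -0.46 ± 0.193 (adjusted p = 0.194). A second run of 7 oligos without a motif (453 to 459) rose by a median of 0.44. Its peak, oligo 453, had 24.0, 20.4, 18.004 and 20.04 CPM in wild-type and 28.9, 28.0, 29.9 and 29.9 CPM in knockout neurites, a change of 0.50 ± 0.0937 that turned to -0.13 under division by total UMIs.

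In Tub, which encodes the tubby protein, 39 motif oligos (numbers 415 to 453, chr7:109032608-109033095, plus strand) rose by only 0.42 in the median, with a longest motif stretch of 15 nt. The native change was higher than the mutated change in 29 of 39 pairs. The peak, oligo 433, had 12.6, 23.7, 23.5 and 16.5 CPM in wild-type and 25.8, 28.0, 28.4 and 32.8 CPM in knockout neurites. Its lowest knockout library lay just above its highest wild-type library, and the change of 0.61 ± 0.151 passed narrowly (edgeR adjusted p = 0.00843). It was no longer called without any of the 4 knockout libraries or without wild-type replicate 1 or 4 (adjusted p between 0.0138 and 0.0453), or with DESeq2, read counts or upper-quartile scaling, and it was at -0.02 under division by total UMIs. Its mutated companion changed by 0.45 ± 0.131, and the difference within this pair was 0.17 ± 0.108 (edgeR adjusted p = 0.521).

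Tub was also the only UTR with runs of native oligos that fell. Oligos 252 to 263 (12 oligos, 3 with a motif, chr7:109031630-109031955, plus strand) fell with a median log2 of -0.58, and oligos 265 to 269 (5 oligos, none with a motif) with a median of -0.55. These 2 runs overlap in sequence. Tub oligo 254, the largest native fall, went from 451, 529, 530.4 and 499.9 CPM to 290.2, 265, 277 and 305 CPM. Its groups did not overlap, with a change of -0.82 ± 0.0682 (edgeR adjusted p = 3.06e-09). Oligos 255, 256, 260 and 269, which held no motif, changed by -0.77, -0.78, -0.79 and -0.67. The mutated companion of oligo 254 fell less, by 0.46 ± 0.04999 on the log2 scale, from 115, 116, 124 and 112 to 79.1, 87.0, 87.6 and 84.7 CPM. In all 19 native Tub oligos fell, and refits that left out a single library called between 18 and 21 native Tub falls, not counted by identity. No oligo of these 2 falling runs was called lower in the soma, where their medians were 0.00 and 0.01, and the signed change was lower in neurites than in the soma for 11 of 12 and 4 of 5 by the test of that difference.

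Falls outside Tub and the mutated Diras1 oligos were small and scattered. Spock2 oligo 56, whose single motif stretch of 25 nt lay near the start of the oligo, went from 30.4, 37.7, 31.3 and 35.1 to 21.8, 26.4, 26.0 and 20.8 CPM (log2 -0.49 ± 0.0960, edgeR adjusted p = 0.000719). Its neighbours 54 and 55 were not called. The largest called native falls of 6 further UTRs lay between -0.19 and -0.27 and rested on the set of libraries. Without any of the 8 libraries Diras1 oligo 96 (adjusted p between 0.0105 and 0.0428) and Ksr2 oligo 535 (0.0101 to 0.0533) were not called. The same held for Fam219a oligo 122 without knockout replicate 1, 3 or 4 or wild-type replicate 2 (0.0103 to 0.0290) and for Kcnj12 oligo 326 without knockout replicate 2, 3 or 4 or any wild-type library (0.0104 to 0.0509). Ssc5d oligo 10 was not called without knockout replicate 1, 2 or 4 or wild-type replicate 1, 2 or 3 (0.0156 to 0.0535), nor was Synj2bp oligo 751 without any knockout library or wild-type replicate 1, 3 or 4 (0.0128 to 0.0524).

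How much motif an oligo held went along with how often it rose. Of motif oligos whose longest unbroken motif stretch was 5 nt or less, 5.42% rose, and the share was 8.14% for 6 to 9 nt, 28.6% for 10 to 14 nt, 55.8% for 15 to 19 nt, 89.9% for 20 to 29 nt and 93.0% for 30 to 53 nt. The upper bins hold 5 UTRs each and overlapping oligos, so they describe few places. Lrrc47, with stretches of at most 6 nt, and Kank2 and Ksr2, with repeats of another kind, gave many of the rises in the lowest bins.

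The place of the stretch within the oligo also differed between oligos that rose and those that did not. Of 328 motif oligos with a stretch of at least 20 nt, 302 rose. When the middle of the stretch lay in the last 65 nt of the oligo 48 of 67 rose (71.6%), compared with 100 of 106 (94.3%) in the first 65 nt, 85 of 85 in the next and 69 of 70 in the third. Median changes were 2.85, 2.40, 1.82 and 0.69 in the same order of place, from the first to the last 65 nt. The 26 that did not rise came from Kcnj12 (10), Fam219a (9), Cacna1b (4) and Spock2 (3), and Fam160b2 had none. The middle of their stretch lay at a median of 228 nt in Kcnj12 and 233 nt in Fam219a. In Cacna1b and Spock2 it lay at 15.5 and 18.5 nt, so the place of these oligos differed by UTR. The bins were drawn after the values were seen, and the other sequence that comes in with each step differs between them, so the part played by position was not tested.

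By UTR, the reporters of 4 genes gained in their share of neurite UMIs. Fam160b2 went from 3.64% ± 0.0526 to 10.9% ± 0.0894, Lrrc47 from 3.30% ± 0.0539 to 9.32% ± 0.295, Ksr2 from 18.5% ± 0.137 to 22.5% ± 0.962 and Diras1 from 4.29% ± 0.0539 to 5.00% ± 0.0885 (SD, n = 4; exact permutation test, two-sided, p = 0.0286 each, adjusted p = 0.0305 over 16 UTRs). In Kank2 the libraries overlapped (5.995% ± 0.148 and 5.90% ± 0.190, exact p = 0.429) although 49 of its native oligos rose. The other 11 UTRs lost share without overlap, Wasf3, Spock2, Cacna1b, Kcnj12 and Fam219a among them in spite of their runs.

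The soma libraries of the same assay place these changes beside those in the cell body. Of 796 native oligos that rose in neurites, 742 (93.2%) were also called higher in the soma, where 899 of 11916 oligos rose (7.54%) and 11 fell (0.0923%). The change was smaller there, with a median of 1.24 for these 796, and the difference between compartments passed the test for 520 of them, with a median of 0.85 more in neurites. The 796 were chosen by their rise in these same neurite libraries, which favours a larger change in neurites than in the soma. Over all oligos the signed change was higher in neurites than in the soma for 614 (5.15%) and lower for 33 (0.277%). The test of this difference took soma and neurite libraries as independent, although the methods separate both fractions from the same membranes.

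The excess in neurites was not spread evenly over the runs. In Ksr2 81 of the 90 run oligos changed more in neurites, with a median excess of 3.24, in Wasf3 55 of 59 (2.80), in Diras1 43 of 49 (2.51), in Kank2 45 of 49 (1.79), in Lrrc47 81 of 93 (1.69) and in Fam160b2 74 of 92 (1.61). In Cacna1b it was 29 of 60 with a median of 0.31, in the Diras1 run of 36 it was 1 with a median of 0.12, and in the Tub run it was 0 of 39 with a median of 0.09. Ksr2 oligo 1447 changed by 6.89 in neurites and 1.90 in the soma, Diras1 oligo 272 by 5.22 and 1.56, and Cacna1b oligo 315 by 2.87 and 2.01.

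Binding of the oligos to purified TDP-43 in the series' RNA Bind-n-Seq libraries, which sequence the RNA recovered with the protein, was not used to choose any oligo. These have 1 input library and 2 libraries at each TDP-43 concentration above 0 nM, so the levels are given without a test. The 1 library without protein (0 nM) was not used, so the levels are not corrected for recovery without TDP-43. At 500 nM TDP-43 the native oligos that rose in neurites had a median log2 level of 2.37 over the input pool, against -0.72 for native oligos without a call. Oligos without a motif that rose stood at 2.24 and the other oligos without a motif at -1.11. The 7 oligos without a motif in the second Cacna1b run rose too, but stood at a median of -2.59. The 28 native oligos that fell stood at 1.01 at 500 nM and at -1.93 at 50 nM. Kcnj12 oligo 414 was at 2.28 and Spock2 oligo 277, which rose by 4.77 in neurites, was at -1.12. No minimum of input reads was set, so the level of an oligo with few reads depends largely on the 0.5 added to its counts. Whether the low level of Spock2 oligo 277 came from weak binding or from few reads was not tested.

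The endogenous transcripts of the same 16 genes were measured by RNA-seq in neurites of the CAD line, where Tardbp itself fell from 410.1 ± 19.6 to 111.5 ± 8.26 CPM (SD, n = 3 each, log2 -1.88, edgeR adjusted p = 7.84e-09). These genes were chosen by the study on the behaviour of their RNAs in such cells, so the endogenous values are set beside the reporters as context and not as independent evidence. Diras1 changed by 6.17, Fam160b2 by 6.07, Wasf3 by 5.53, Ksr2 by 4.34, Kank2 by 3.87, Lrrc47 by 3.60, Spock2 by 2.96, Fam219a by 2.92 and Kcnj12 by 2.42, and each of these UTRs held a run of oligos that rose. Cacna1b changed by -0.94 ± 0.101, Tub by -0.52 ± 0.0898 and Synj2bp by -1.76 ± 0.0910. The reporters with Cacna1b sequence thus rose by up to 2.87 while the endogenous RNA was lower, and in Synj2bp 1 of 775 native oligos fell. Soga3 (-0.17), Sos2 (-0.05), Ssc5d (-0.10) and Lars2 (-0.40) had edgeR adjusted p between 0.0563 and 0.646 at the endogenous level, and no native oligo of theirs rose.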

How the data were processed

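Per the labels and methods, MPRA reads were trimmed with cutadapt, aligned to the oligo pool with bowtie2 and reduced to unique 8 nt UMIs. The authors deposited, for every oligo and library, a read count and a UMI count, and the UMI counts were analysed here. For CAD RNA-seq the authors deposited estimated counts per transcript (Salmon), and for RNA Bind-n-Seq read counts per oligo. Estimated counts were rounded after summing to genes, and counts without a gene made up at most 0.0994%. Aligner and counter versions are not given in the sources used here.

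Neurite UMIs were tested with edgeR 4.0.16 (limma 3.58.1, R 4.3.3) by quasi-likelihood with TMM scaling and filterByExpr, at a Benjamini-Hochberg adjusted p of 0.01, over all 11900 oligos kept. CPM values use the TMM-scaled library sizes. Pairs of a motif oligo and its mutated companion (mean of at least 50 UMIs) were tested as a difference of differences, and the contrast between neurites and soma as an interaction over 16 libraries. The interaction fit held no term for the culture from which a soma and a neurite fraction were both taken. Shares of UMIs were compared by an exact permutation test (scipy 1.17.1). Runs were at least 5 adjacent called native oligos. RNA Bind-n-Seq levels are log2 of depth-scaled reads over input, with 0.5 added to counts and no minimum of reads. Oligos of 13 UTRs were placed on GRCm38, and those of Kcnj12, Soga3 and Synj2bp were not. The scripts were tested on simulated data.

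Median UMIs per oligo ranged from 355 to 713 by library. UMIs cover counting error only, and very abundant reporters can run short of the 65536 tags.

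Named oligos are the 5 largest called native rises and falls, the largest of each in every UTR, the peak of each run with its companion, the 5 most positive and negative called pair differences and the 5 oligos with the most UMIs. Other oligos named were chosen after their values were seen. Members, lists and tests were chosen with earlier results of these data known. Alternatives covered scaling, filters, DESeq2 1.42.0, read counts, tag correction and left-out libraries. Other assays and cell lines of the series were not used here.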

Additional observations from a re-analysis of the deposited data

Results flagged for a closer look

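Of 164 groups of 4 libraries, 9 had a lowest or highest library that stood apart from the others by Dixon's criterion, and about 5% of groups do so by chance. In CPM these were a knockout library at 62.6 for mutated Diras1 oligo 199, at 21.3 for mutated Fam160b2 oligo 241, at 17.0 for mutated Fam160b2 oligo 246 and at 34.1 for mutated Spock2 oligo 24, and a wild-type library at 14.6 for mutated Fam160b2 oligo 233, at 83.5 for mutated Kank2 oligo 264 and at 171.0 for Kcnj12 oligo 326. In shares of UMIs, a knockout library stood apart for Lars2 (1.23%) and for Wasf3 (7.64%).

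By the interaction test, 614 of 11918 oligos (5.15%) had a higher signed change in neurites than in soma and 33 (0.277%) a lower one. Among all of these were 33 of the 63 named oligos. Named oligos were mainly chosen by their values in these same neurite libraries, which favours such a difference. The excess of the neurite over the soma log2 change in Ksr2 was 4.65 for oligo 1440, 4.73 for 1443, 4.8 for 1445, 4.98 for 1447, 4.6 for 1452, 2.33 for 1478 and 4.01 for mutated 1447. In Fam160b2 it was 3.7 for oligo 233, 3.81 for 236, 3.8 for 237, 3.94 for 239, 3.93 for 240, 3.99 for 241 and 4.12 for both 245 and 246. Diras1 gave 3.29 for oligo 265 and 3.65 for 272, but -1.11 for mutated 265. Kank2 oligo 264 was at 3.13 and its mutated companion at 2.13. Single oligos of the other genes gave 3.56 in Wasf3 (431), 3.15 and 1.5 in Spock2 (277 and 24), 3.05 in Lrrc47 (59), 2.21 in Kcnj12 (414), 1.79 in Fam219a (158) and 0.85 in Cacna1b (315). In Tub the neurite change was below that in the soma, by -0.85 for oligo 254, -0.88 for 255, -0.76 for 256, -0.74 for 260, -0.65 for 269 and -0.57 for mutated 254.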

How the results depend on the processing

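The count of oligos called higher stayed within 1.5 times of 951 under every alternative, from 695 with total UMI scaling to 1046 at an adjusted p of 0.05, and between 917 and 960 with a library left out. Counts of falls moved more. With total UMI scaling 10823 oligos fell (3841 motif, 2661 no-motif and 4321 mutated) and 92 mutated oligos rose, so that 6.03% of calls were rises, and with upper-quartile scaling 3290 fell (1143, 779 and 1368 in the same order), with 21.1% of calls rises, because both scales put the median oligo below 0. At an adjusted p of 0.05, 132 fell (32 motif, 39 no-motif and 61 mutated) and 12 pairs had a lower signed change in the native oligo. Scaling on no-motif oligos gave 6 motif falls, and a fit of all 16 libraries gave 20 motif and 28 no-motif falls; the cause was not tested. With a library left out, motif falls numbered 5 to 10 and pairs with a lower native change 1 to 5. Total UMI scaling turned the sign of Cacna1b oligo 453 (-0.13), Diras1 175 (-0.18), Tub 433 (-0.019) and the mutated Fam160b2 233 (-0.49), 239 (-0.43), 240 (-0.44) and 241 (-0.41), Kcnj12 414 (-0.60), Lrrc47 59 (-0.61), Ssc5d 10 (-0.49) and Tub 82 (-0.45). Of 44 named oligos with a call, 7 lost it with a library left out. Deviations of wild-type and knockout libraries of the same number from their group means had correlations from -0.063 to 0.181, the highest for replicate 2. A fit with the replicate number as a block gave 968 rises, 945 of them shared, and 55 falls. DESeq2 gave 947 rises and 50 falls. Depth limits the oligos with few wild-type UMIs, such as Ksr2 1447 with 34 to 43.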
